A study of Mus musculus with 2 samples.

Results

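Inflammatory macrophage nuclei with Il1b and Nlrp3 transcripts made up 123 of the 1115 nuclei with a macrophage signature in a single-nucleus data set of 1838 nuclei from mouse mammary tumours. They were chosen by their own counts of unique molecular identifiers (UMIs, each a distinct captured transcript). A nucleus needed 1000 or more UMIs, at least 3 UMIs over the macrophage genes Csf1r, Adgre1, Mertk, Ptprc, C1qa, C1qb and C1qc, and under 1000 CPM over the epithelial genes Epcam, Krt8, Krt18, Cdh1 and Elf5. CPM are UMIs per 1000000 UMIs of the same nuclei. These conditions define the 1115 macrophage-gated nuclei. Inflammatory nuclei then had at most 2 UMIs over the resident-macrophage genes F13a1, Mrc1, Cd163, Lyve1 and Retnla, at most 1 over Gpnmb, Pdpn and Pde10a, and at most 2 of Mmp12. They also had 6 or more UMIs over the early and stress genes Hsph1, Fosb, Nr4a3, Atf3 and Jun, and 3 or more over Il1b and Nlrp3. Levels of these 28 genes are therefore a description of the choice and not a result.

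The study compared tumour-associated macrophages (TAMs) of MYC-PyMT mice, which carry S100a8-cre (driven by a gene of neutrophils and other myeloid cells) and a cre-dependent MYC allele in Rosa26, with those of control-PyMT mice, with 1 sample of each and both on a low protein diet. PyMT mice develop mammary tumours from the polyoma middle T oncogene. The control-PyMT and MYC-PyMT recipients were lethally irradiated at 7 weeks of age and received marrow of Fcgr1-cre mice whose Rosa26 locus holds an H2B-mCherry gene that cre switches on, so mCherry marks nuclei whose cell once used the Fcgr1 promoter. Low protein food followed after 2 weeks and was kept up for 6 weeks. The sort took TAMs as CD45, F4/80 and Vcam positive, and negative for SiglecF, Ly6G, B220 and Ly6C, and their nuclei as mCherry and SYTO9 positive and CD11b negative. Both samples stand in 1 matrix of 2 wells that no label ties to a genotype, so the genotypes were not compared and the whole matrix counts as 1 pooled sample. How many mice went into a sample is not given in the sources used here, and macrophages that survive from the host carry no mCherry allele.

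Interleukin 1 beta is made as an inactive precursor when pattern receptors or cytokines switch on NF-kB, and the NLRP3 inflammasome activates caspase 1, which cuts the precursor into its secreted form. Priming of this kind also induces Nlrp3 itself, chemokines, and inhibitors that end the NF-kB signal. AP-1 and NR4A factors are immediate early genes, induced within minutes by many stimuli, and heat shock chaperones answer unfolded protein. Tissue handling is known to induce both of the last groups in macrophages.

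The promoters below are shown because the nuclei were chosen by 3 of the genes (Il1b, Nlrp3 and Hsph1) and because Cxcl2 was among the genes that stood apart beside them. Each runs from 250 bases before to 50 after a RefSeq transcription start, on build GRCm38.p6. Capitals mark matches, on either strand, to the kB consensus (GGG, a purine, any base, 3 pyrimidines, C) or to the heat shock element core GAANNTTC. AP-1 sites (TGANTCA) and cAMP response elements (TGACGTCA) were searched too and had no match in these 4 windows.
Il1b promoter, chr2:129371090-129371389, minus strand: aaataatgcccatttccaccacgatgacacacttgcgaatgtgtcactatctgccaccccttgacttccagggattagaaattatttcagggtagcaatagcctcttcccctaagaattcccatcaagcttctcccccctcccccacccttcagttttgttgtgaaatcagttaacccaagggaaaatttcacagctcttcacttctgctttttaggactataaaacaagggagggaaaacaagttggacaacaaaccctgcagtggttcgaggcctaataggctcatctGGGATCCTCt
Nlrp3 promoter, chr11:59541319-59541618, plus strand: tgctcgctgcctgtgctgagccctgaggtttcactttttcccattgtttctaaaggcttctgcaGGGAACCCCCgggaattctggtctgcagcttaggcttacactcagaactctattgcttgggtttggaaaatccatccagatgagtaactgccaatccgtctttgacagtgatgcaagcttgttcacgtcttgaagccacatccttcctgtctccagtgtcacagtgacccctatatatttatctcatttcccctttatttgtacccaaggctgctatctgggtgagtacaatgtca
Cxcl2 promoter, chr5:90903649-90903948, plus strand: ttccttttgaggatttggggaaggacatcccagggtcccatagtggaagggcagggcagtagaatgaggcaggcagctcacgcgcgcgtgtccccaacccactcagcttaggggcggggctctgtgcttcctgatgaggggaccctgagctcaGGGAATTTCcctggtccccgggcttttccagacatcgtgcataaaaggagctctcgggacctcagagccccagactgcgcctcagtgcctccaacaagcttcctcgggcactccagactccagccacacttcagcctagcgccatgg
Hsph1 promoter, chr5:149636287-149636586, minus strand: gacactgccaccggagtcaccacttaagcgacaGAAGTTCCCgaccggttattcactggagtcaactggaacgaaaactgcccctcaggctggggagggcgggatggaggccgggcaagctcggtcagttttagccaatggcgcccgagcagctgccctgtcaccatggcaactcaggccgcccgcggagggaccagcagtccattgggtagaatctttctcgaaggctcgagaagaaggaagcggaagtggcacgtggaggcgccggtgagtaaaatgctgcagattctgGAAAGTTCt
The capitals in Il1b, Nlrp3 and Cxcl2 are kB matches, and the 2 Nlrp3 matches overlap. The window of the other RefSeq start of Nlrp3 has no kB match, and those of the rule genes Nr4a3 and Atf3 have no match to any motif searched. In Hsph1 the first capitals are a kB match and the second a heat shock element. A kB match was found in 17.4% of all 32851 RefSeq mouse promoter windows searched, and a heat shock element in 7.86%. A match is a description of these letters only. The RefSeq table held 19 of the 27 genes looked for.

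Well 1 held 115 of the 123 inflammatory nuclei, or 14.8% of its 776 gated nuclei (95% interval 12.4 to 17.5), and well 2 held 8, or 2.36% of 339 (1.02 to 4.60). The limits on resident, Gpnmb and Mmp12 genes left out 133 gated nuclei of well 1 and 216 of well 2. All comparisons below are therefore within well 1, apart from a separate description of the 8 nuclei of well 2. Inflammatory nuclei there had a median of 3097 UMIs (1022 to 7309), against 3015 UMIs (1002 to 46519) in the other 661 gated nuclei. None of the 123 shared its barcode with a nucleus of the other well, and 9 barcodes in all stood in both wells.

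Gated nuclei of 3 other kinds, within the same limits on resident, Gpnmb and Mmp12 genes, were set against them. Early-gene nuclei (90 in well 1) met the early-gene condition but had at most 2 UMIs of Il1b and Nlrp3. Nuclei with Il1b or Nlrp3 alone (40) met the Il1b and Nlrp3 condition but had at most 5 early-gene UMIs. Steady nuclei (398) met neither. Median UMIs were 3097 in inflammatory nuclei, against 3037.5 in early-gene nuclei, 2820.5 in nuclei with Il1b or Nlrp3 alone and 2910.5 in steady nuclei.

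Within the 123 inflammatory nuclei, the early-gene sum ran from 6 to 84 UMIs with a median of 18, and the Il1b and Nlrp3 sum from 3 to 36 with a median of 7. Il1b and Nlrp3 were both seen in 64 nuclei, Il1b without Nlrp3 in 51 and Nlrp3 without Il1b in 8. No gap separated the chosen nuclei from the rest. Counting nuclei that met every other condition, 13 stood at 3 UMIs of Il1b and Nlrp3, just inside the limit, and 17 at 2, just outside. For the early genes, 5 nuclei stood at 6 UMIs and 9 at 5. Of gated nuclei that met both inflammatory conditions, 29 were left out for Mmp12, 8 for resident genes and 2 for Gpnmb, Pdpn and Pde10a. The 8 were all in well 2, and the 29 and the 2 all in well 1. The limits thus bear on the number of inflammatory nuclei in each well.

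**Figure D1:**
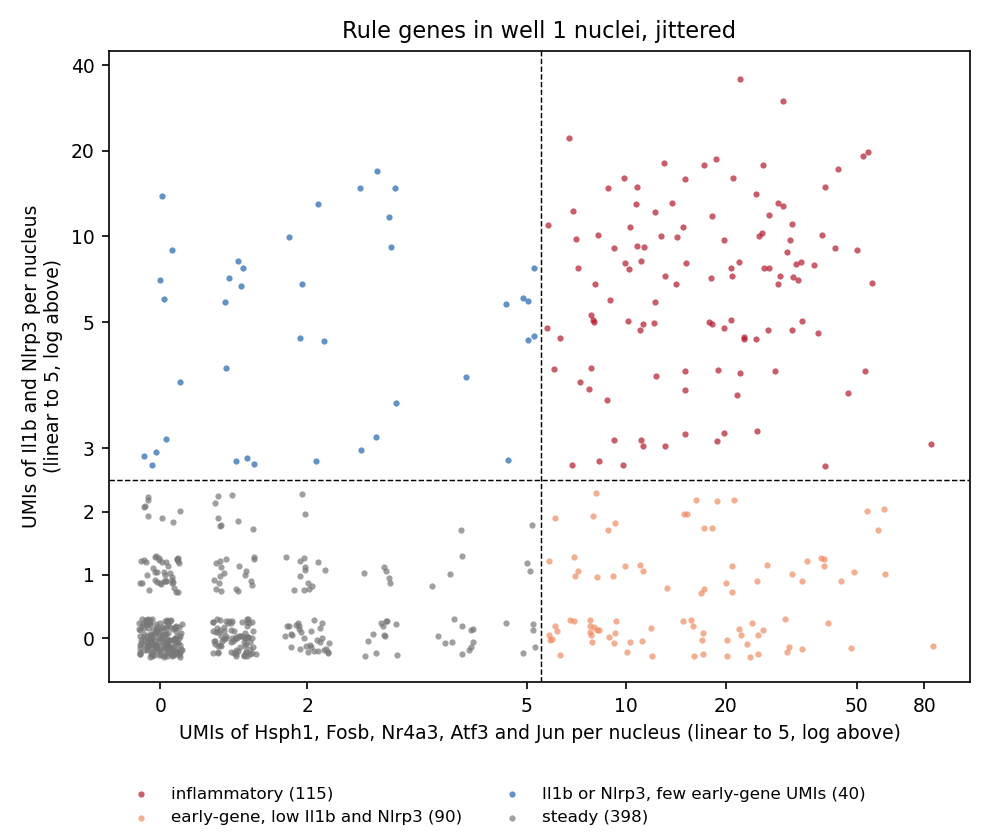
UMIs of the 5 early genes (horizontal axis) and of Il1b and Nlrp3 (vertical axis) in each of 643 well 1 nuclei, jittered, with dashed lines at the limits of the rule. The 115 inflammatory nuclei fill the upper right field without a gap to the 90 early-gene nuclei below them or the 40 nuclei with Il1b or Nlrp3 alone to their left.

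The same UMIs chose and measured these nuclei, so each nucleus' UMIs were also split at random into 2 parts of about equal size. The rule was applied to the first part at lower limits, and levels were read in the second. Not all limits fell in proportion: 2 UMIs were asked for over Il1b and Nlrp3, and 2 over the macrophage genes. In the second part, Il1b stood at 1835 CPM (1637 to 2050) in 100 inflammatory nuclei, against 264 CPM (185 to 365) in 77 early-gene nuclei, 1426 CPM (1114 to 1799) in 33 nuclei with Il1b or Nlrp3 alone and 69.6 CPM (50.8 to 93.2) in 383 steady nuclei. Nlrp3 stood at 610 CPM (498 to 739) in inflammatory nuclei, against 183 CPM (118 to 270) in early-gene nuclei, 583 CPM (390 to 837) with Il1b or Nlrp3 alone and 60.4 CPM (42.9 to 82.5) in steady nuclei. In this split, early-gene nuclei stood above steady nuclei in both transcripts. With fewer UMIs read by the rule, and a limit on Il1b and Nlrp3 above proportion, some nuclei that meet the full rule can fall into the early-gene group. How far this raised its levels was not tested. With all UMIs, the early-gene nuclei had 27 UMIs of Il1b in 19 nuclei and 29 UMIs of Nlrp3 in 24 nuclei.

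The markers given for these nuclei also include Osm, a cytokine of the interleukin 6 family, and Il1r2, the decoy receptor that binds interleukin 1 without signalling. Neither entered the rule, and each was seen in a minority of inflammatory nuclei. Osm had 30 UMIs in 21 of 115 inflammatory nuclei, or 79.2 CPM, against 35.2 CPM in early-gene nuclei, 32.6 CPM in nuclei with Il1b or Nlrp3 alone and 6.96 CPM in steady nuclei. Il1r2 had 97 UMIs in 23 inflammatory nuclei, or 256 CPM, against 76.8 CPM in early-gene nuclei, 553 CPM in nuclei with Il1b or Nlrp3 alone and 6.96 CPM in steady nuclei. The Il1r2 level rested on few nuclei: 3 held 51.5% of its UMIs in inflammatory nuclei, and 5 nuclei held all 68 UMIs of those with Il1b or Nlrp3 alone. At an equal depth of 1000 UMIs per nucleus, Osm was seen in 6.09% of inflammatory nuclei (2.48 to 12.1) and Il1r2 in 8.70% (4.25 to 15.4), against 0.690% and 0% of 145 nuclei with epithelial genes, which should lack these transcripts. For Il1b the same shares were 73.0% (64.0 to 80.9) in inflammatory nuclei and 4.83% (1.96 to 9.69) in epithelial-gene nuclei, and for Nlrp3 40.9% (31.8 to 50.4) and 3.45% (1.13 to 7.86). Without thinning, Osm was seen in 18.3% and Il1r2 in 20% of inflammatory nuclei at their median of 3097 UMIs, and each in 0.690% of epithelial-gene nuclei at a median of 3777.

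Of 17 macrophage identity genes outside the rule, all had enough UMIs to be compared. The macrophage identity list summed to 6367 CPM in inflammatory nuclei, 1.16-fold that of the other gated nuclei (1.11 to 1.21). Markers of T cells, natural killer cells, eosinophils and fibroblasts were all at 0 UMIs in inflammatory nuclei, which allows up to 7.92 CPM for each list (3 counts). The summed neutrophil markers stood at 240 CPM (193 to 295) in inflammatory nuclei, against 114 CPM (101 to 129) in the other gated nuclei, with 7 of 12 markers at 0 in inflammatory nuclei. Most of it was Csf3r, the granulocyte colony-stimulating factor receptor, at 203 CPM in 43 inflammatory nuclei, against 76.3 CPM in the other gated nuclei. Monocyte markers stood at 34.3 CPM (18.3 to 58.7) in inflammatory nuclei, against 100.1 CPM (87.6 to 114) in the others. Epithelial transcripts were present throughout well 1: at least 1 UMI of the 5 epithelial genes was seen in 44.3% of inflammatory nuclei, against 38.4% of the other gated nuclei. The part of these other transcripts in the results below was not tested beyond the values given.

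Levels were then compared gene by gene as ratios of summed UMIs, with the rule's genes left out, counting only genes for which at least 10 UMIs would fall on each side at equal levels. A gene is called higher at a ratio of 2 or more and lower at 0.5 or less. With 1 pooled sample there was no test: intervals are exact 95% intervals that cover counting error only, and not differences between mice or libraries. Against the other gated nuclei, 266 of 5788 genes were higher (4.6%) and 749 lower (12.9%), and the median ratio was 0.804. Against early-gene nuclei, 170 of 4780 genes were higher (3.56%) and 381 lower (7.97%), with a median ratio of 0.954. All the comparisons share the same inflammatory nuclei, so they do not bear on each other as independent results.

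Against the other gated nuclei, early genes and chaperones were mostly higher in inflammatory nuclei, and NF-kB, chemokine and costimulatory genes in part. All 15 measured members of the AP-1, NR4A and other early gene list were called higher, with a median ratio of 3.06, and 14 of 18 heat shock genes, with a median ratio of 2.87. The rule chose nuclei by 5 genes of these kinds, so these 2 lists are not independent of the choice. It also asked for Il1b and Nlrp3 UMIs. NF-kB and chemokine genes are induced along with Il1b and Nlrp3, so their lists below are not independent of the choice either. Whether costimulatory genes depend on it too was not tested. Egr1, an early zinc finger factor, stood at 889 CPM in inflammatory nuclei, against 199 CPM in the others, a ratio of 4.46 (3.86 to 5.14). Klf4, another early factor, had a ratio of 3.87 (2.87 to 5.20). Dnajb1, a co-chaperone of Hsp70, stood at 330 CPM in inflammatory nuclei, against 71.5 CPM in the others (ratio 4.61, 3.63 to 5.85), and Bag3, which couples Hsp70 to autophagy, had a ratio of 4.22 (3.55 to 5.02).

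Of 16 measured NF-kB genes, 8 were higher and 0 lower in inflammatory nuclei than in the other gated nuclei. The highest ratios were those of Nfkbie, Tnfaip3, Nfkbiz and Nfkbia. Nfkbie, an inhibitor of NF-kB, stood at 142 CPM in inflammatory nuclei, against 36.4 CPM in the others (ratio 3.91, 2.73 to 5.57), Tnfaip3, which encodes A20, at 562 CPM against 159 CPM (3.53, 2.97 to 4.19), and Nfkbia, which encodes I-kappa-B alpha, at 427 CPM against 128 CPM (3.34, 2.74 to 4.06). At the other end of the list, the kinase gene Ikbkb had a ratio of 0.732 and Cyld, another negative regulator of NF-kB, of 0.777. Among chemokines, 4 of 6 were higher, led by Ccl3 (346 CPM against 96.6 CPM, ratio 3.58) and Ccl4 (1063 CPM against 299.5 CPM in the others, ratio 3.55). Cxcl10, an interferon-induced T cell attractant, had a ratio of 0.649 (0.270 to 1.35). Only 6 of 18 chemokine genes and 5 of 20 cytokine genes had enough UMIs to be measured.

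Costimulatory genes, the ligands by which macrophages address T cells, were higher in 5 of 11 cases, with a median ratio of 1.30. Cd83 stood at 3354 CPM in inflammatory nuclei, against 903 CPM in the others (ratio 3.71, 3.46 to 3.98), and Cd86 at 3902 CPM against 1444 CPM (2.70, 2.54 to 2.87). The checkpoint genes Vsir (ratio 0.775) and Cd274 (0.961) were not called. Ptgs2, the inducible cyclooxygenase that makes prostaglandins, had 35 UMIs in 13 inflammatory nuclei, against 28 UMIs in the other gated nuclei, too few to be called. Alox5ap, needed for leukotriene synthesis, was lower (0.362, 0.130 to 0.815). Costimulatory genes were closer in early-gene nuclei. The list stood at 9686 CPM in inflammatory nuclei, against 6468 CPM in early-gene nuclei and 4218 CPM in the other gated nuclei. Over early-gene nuclei 2 of 11 genes were called higher and 0 lower. Cd83 was seen in 110 of 115 inflammatory nuclei and 74 of 90 early-gene nuclei. Its median per nucleus was 2607 CPM in inflammatory nuclei, against 2078 CPM in early-gene nuclei.

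In the NRF2 and metal list, 4 of 12 genes were higher. The autophagy receptor Sqstm1 stood at 1045 CPM in inflammatory nuclei, against 251 CPM in the others (ratio 4.17, 3.66 to 4.75), haem oxygenase Hmox1 had a ratio of 3.28 (2.42 to 4.42), and Nfe2l2, which encodes NRF2 itself, of 3.06 (2.85 to 3.30). The peroxidase Prdx1 stood at 0.591 (0.429 to 0.799). Of the mitogen-activated kinase feedback genes, 6 of 10 were higher, with Dusp2 at 6.61 (4.07 to 10.8) and Gadd45b at 3.89 (2.37 to 6.27). Both lists were closer in early-gene nuclei. Over these, the NRF2 and metal list stood at 1.32-fold (1.24 to 1.41), with 1 of 12 genes higher. The feedback list stood at 1.46-fold (1.33 to 1.61), with 3 of 11 genes higher and 1 lower.

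Outside the lists, the genes with the highest lower bounds were Grasp, a scaffold protein gene (ratio 8.86, 6.44 to 12.3), Arl5c, an Arf-like GTPase gene (7.85, 6.41 to 9.63), the inositol transporter Slc5a3 (7.35), the glycosyltransferase Gcnt2 (5.75) and Mpp7 (4.67). Mrps6, Taf4b, Slc25a33, Ifrd1 and Dnaja1 followed at ratios of 4.0 to 5.76. Slc5a3 and Mrps6 overlap in the genome on the same strand, so their counts are uncertain. Kcnip4 was also high (5.49), but 45 of its 55 UMIs came from 1 inflammatory nucleus, and in nuclei without epithelial-gene UMIs its ratio was 0.886.

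With Il1b and Nlrp3 left out, the interleukin 1 list was near level as a whole, at 1.03-fold (0.959 to 1.11), with 2 of 12 genes higher and 1 lower. Il1a, the sister cytokine, stood at 227 CPM in inflammatory nuclei, against 103 CPM in the others (2.2, 1.70 to 2.83). Casp1, the protease of the inflammasome, was the lower one, with 2 UMIs in 115 inflammatory nuclei, against 74 UMIs in the other 661 (0.165, 0.0196 to 0.616). The inflammasome adaptor Pycard (8 UMIs in inflammatory nuclei), the pore gene Gsdmd (8) and Il1rn (1), the receptor antagonist, were too sparse to be measured.

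Several other lists had no called gene. MHC class II genes stood at 0.985-fold of the other gated nuclei (0.942 to 1.03), glycolysis and hypoxia genes at 1.04-fold (0.943 to 1.14), genes around folliculin and TFE factors at 1.07-fold (0.996 to 1.15) and lysosome genes at 1.22-fold (1.18 to 1.26), with 0 measured genes called in any of these lists. Among lysosome genes, the protease gene Lgmn (legumain) had a ratio of 1.95 (1.81 to 2.09). Cell cycle genes stood at 0.603-fold (0.494 to 0.730), with 2 of 6 lower. In the TGF-beta list 3 of 8 genes were higher (Smad7, Skil and Tgif1, which restrain the pathway, at 2.02 to 2.05), and in the amino acid transport list 3 of 15 (Slc38a2, Slc15a3 and Slc3a2, at 2.09 to 2.63). Toll-like and lectin sensing genes went both ways, with Tlr2, Cd14 and Map3k8 higher and Tlr1, Tlr13 and Irak4 lower, of 11 measured. Of macrophage identity genes, Fcgr1, whose promoter drives the donors' cre, was lower (0.329, 0.139 to 0.666), with 8 UMIs in inflammatory nuclei against 148 UMIs in the others.

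The early-gene nuclei allow a narrower question: what differs between nuclei that all met the early-gene condition, when Il1b and Nlrp3 are high or low. Single early genes were not all alike in the second part of the UMIs. Nr4a3 stood at 610 CPM (498 to 739) in inflammatory nuclei, against 176 CPM (113 to 262) in early-gene nuclei. Atf3 stood at 1495 CPM against 1824 CPM. Against early-gene nuclei, the heat shock list was about level, at 12066 CPM in inflammatory nuclei, against 13016 CPM. Its ratio was 0.927 (0.888 to 0.967), with 1 of 19 genes higher and 2 lower. Hsp90aa1 stood at 4180 CPM in inflammatory nuclei, against 4936 CPM in early-gene nuclei (0.847, 0.789 to 0.909), and Hspb1 at 26.4 CPM against 115 CPM (0.229, 0.101 to 0.471). The early list was at 1.27-fold (1.21 to 1.34), with 1 of 15 genes higher.

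NF-kB genes stood apart more, at 5905 CPM in inflammatory nuclei, against 3247 CPM in early-gene nuclei, a ratio of 1.82 (1.69 to 1.96). Per nucleus the NF-kB list had 2 to 74 UMIs with a median of 16 in inflammatory nuclei, against 1 to 44 with a median of 8.5 in early-gene nuclei, so the groups overlapped widely. Of 17 measured genes 6 were higher and 0 lower. The 2 groups were parted by Il1b and Nlrp3, which are induced along with NF-kB genes, so this list is not independent of the choice. Nfkbie had a ratio of 3.18 (1.74 to 6.2), the subunit gene Nfkb1 of 2.63 (2.2 to 3.16) and Nfkbia of 2.06 (1.53 to 2.79), while Cyld (1.02) and Ikbkb (1.07) were near 1.

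Against early-gene nuclei, 1 of 5 measured chemokines, 1 of 5 cytokines and 3 of 9 Toll-like and lectin sensing genes were higher, and 0 of 17 cytokine signalling genes, of which 1 was lower. Cxcl2, a neutrophil attractant (chromosome 5, 90903871 to 90905938, GRCm38), was seen with 0 to 27 UMIs per inflammatory nucleus, 77 of 115 being at 0, against 0 to 11 in early-gene nuclei, 71 of 90 being at 0. It stood at 443 CPM in 38 of 115 inflammatory nuclei, against 122 CPM in 19 of 90 early-gene nuclei (ratio 3.65, 2.55 to 5.33). Cd40, the receptor for T cell help, had a ratio of 5.22 (2.19 to 15.1) from 38 UMIs against 6 UMIs. When 5 or more Il1b and Nlrp3 UMIs were asked for, the ratio was 1.79, below the call, from 25 UMIs against 19 UMIs. That setting also moved inflammatory nuclei with 3 to 4 such UMIs into the reference, giving 88 against 117 nuclei. Also called higher were the lipopolysaccharide co-receptor Cd14 (3.35, 1.98 to 5.96) and the NF-kB target Tnfaip2 (3.61, 2.07 to 6.66). The survival gene Bcl2a1d stood at 3.67 (2.18 to 6.50), but near-identical Bcl2a1 copies may share its reads. Tnf stood at 306 CPM in inflammatory nuclei, against 186 CPM in early-gene nuclei (1.65, 1.19 to 2.30), and was not called.

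Arl5c (chromosome 11, 97989578 to 97996181) and Grasp (chromosome 15, 101224188 to 101232756) are protein-coding genes. The 3 genes with the highest lower bounds against early-gene nuclei were Arl5c (6.57, 4.42 to 10.1), Grasp (5.44, 3.15 to 10.1) and Pdxk (5.89, 2.66 to 15.4). Arl5c had 223 UMIs in 32 inflammatory nuclei, against 28 UMIs in 9 early-gene nuclei. Grasp had 99 UMIs in 35 inflammatory nuclei, against 15 UMIs in 11 early-gene nuclei. The 50 Pdxk UMIs stood in 8 inflammatory nuclei. Myo1e, Dot1l, Slc15a2, Ptprm and Slc25a33 were also among the 15 leading genes, at ratios of 2.47 to 4.60.

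**Figure D2:**
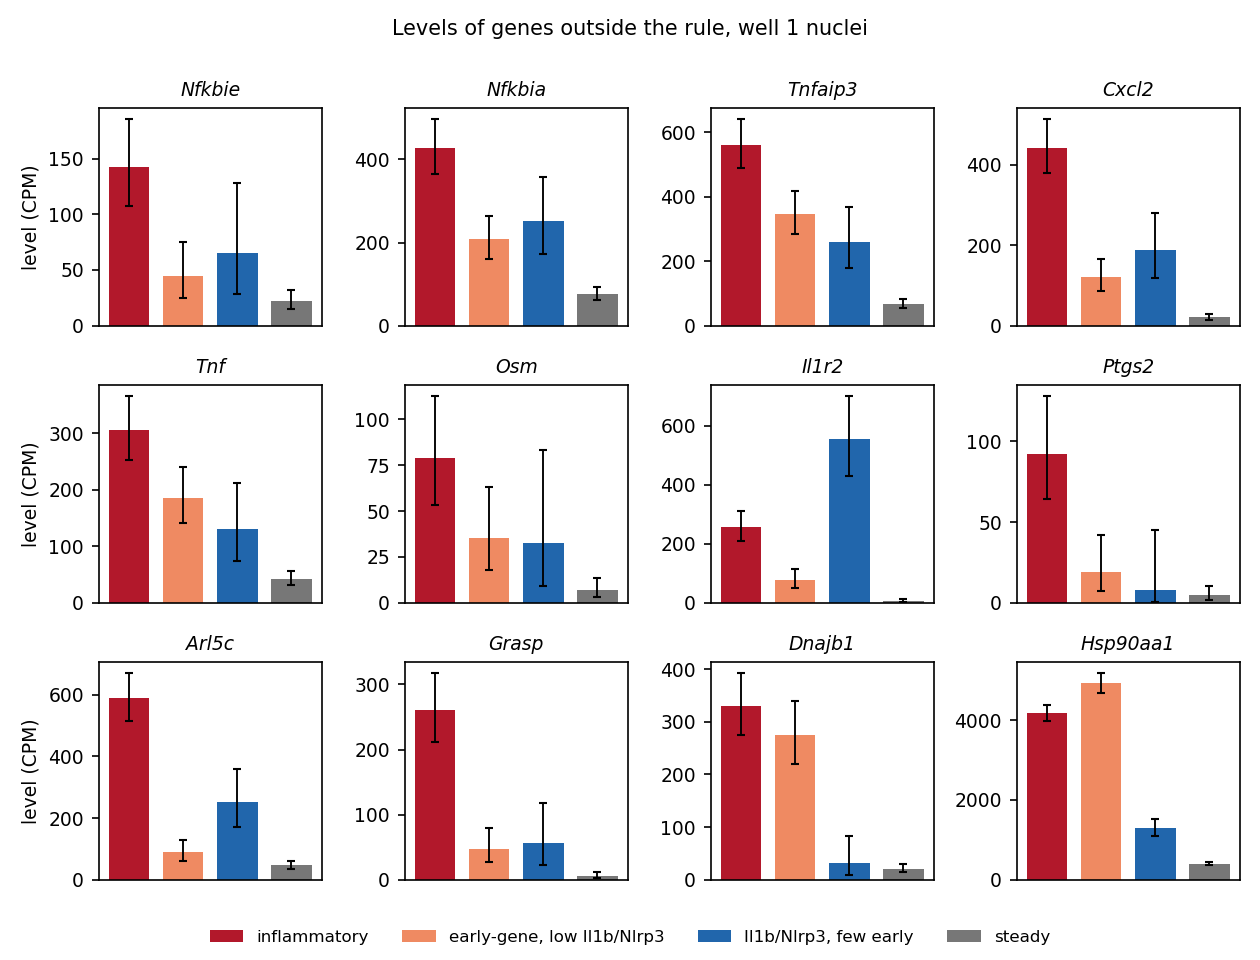
Level in CPM of 12 genes outside the rule in well 1 nuclei of 4 groups, with exact 95% Poisson intervals for counting error. Nfkbie, Nfkbia, Cxcl2, Arl5c and Grasp were highest in inflammatory nuclei, Dnajb1 and Hsp90aa1 were also high in early-gene nuclei, and Il1r2 was highest in nuclei with Il1b or Nlrp3 alone.

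Against the 40 nuclei with Il1b or Nlrp3 alone, heat shock and early genes stood further apart than NF-kB genes. These 40 were chosen for few early-gene UMIs, so the heat shock and early lists are not independent of the choice. Of 2558 measured genes, 191 were higher (7.47%) and 94 lower (3.67%) in inflammatory nuclei, with a median ratio of 0.956. Heat shock genes stood at 12066 CPM in inflammatory nuclei, against 3792 CPM in nuclei with Il1b or Nlrp3 alone, a ratio of 3.18 (2.89 to 3.51), with 12 of 13 called higher, and the early list had 8 of 15 higher. NF-kB genes were closer, at 1.32-fold (1.20 to 1.45) with 2 of 13 higher, and Cd86 was near 1 (ratio 1.04, 0.936 to 1.16). MHC class II genes summed to 0.70-fold (0.650 to 0.754), and 2 of 6 were called lower: the class II transactivator Ciita (0.413, 0.293 to 0.586) and H2-DMb1 (0.414, 0.214 to 0.815). Ciita stood at 208 CPM in inflammatory nuclei, against 505 CPM in nuclei with Il1b or Nlrp3 alone. Il1r2 had a ratio of 0.463 (0.336 to 0.640), with the concentration in few nuclei given above.

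Against steady nuclei, which lacked both signatures, 390 of 5725 genes were higher (6.81%) and 949 lower (16.6%), with a median ratio of 0.766. For the following lists, ratios were higher than against early-gene nuclei. The early list stood at 6.56-fold (6.19 to 6.95), heat shock at 6.47-fold (6.16 to 6.8) and chemokines at 3.91-fold (3.55 to 4.31). Costimulation stood at 3.30-fold (3.16 to 3.46) and NF-kB at 2.91-fold (2.75 to 3.08). Steady nuclei were chosen to be low in both sets of rule genes, so these ratios are not independent of the choice.

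**Figure D3:**
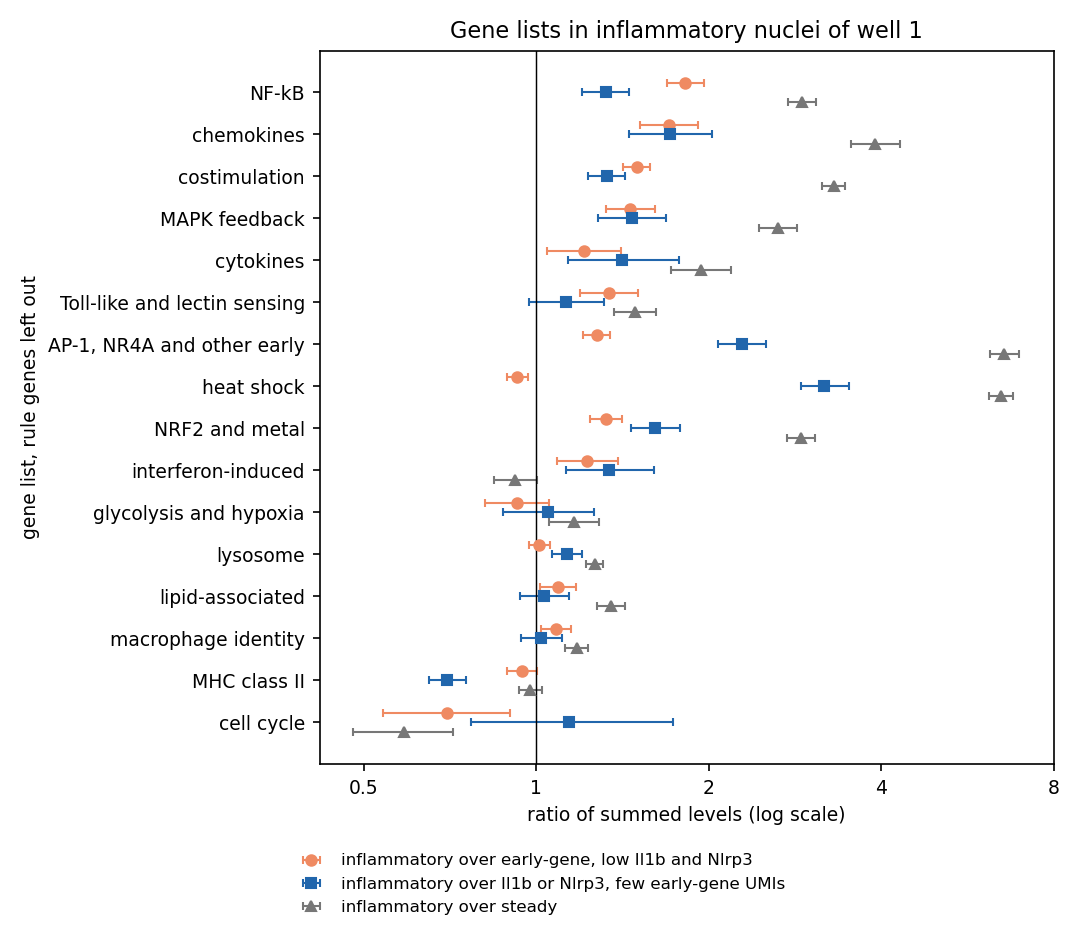
Ratio of summed levels (log scale) for 16 gene lists, rule genes left out, in inflammatory nuclei of well 1 over 3 references, with exact 95% intervals for counting error. The NF-kB list stood at 1.82-fold of early-gene nuclei, and heat shock at 0.927. Over nuclei with Il1b or Nlrp3 alone heat shock reached 3.18 and NF-kB 1.32. The references were chosen by early-gene or by Il1b and Nlrp3 UMIs, so these ratios are not independent of the choice.

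The following levels describe the inflammatory nuclei split by the UMIs that also chose them, so they are no test of a relation. Split by their own Il1b and Nlrp3 UMIs, the NF-kB list stood at 4859 CPM in the 27 nuclei with 3 to 4 UMIs, 5776 CPM in the 44 with 5 to 8 and 6579 CPM in the 44 with 9 or more. Cxcl2 stood at 186 CPM, 396 CPM and 622 CPM in the same order, whereas heat shock stood at 12857 CPM, 12090 CPM and 11619 CPM. Other inflammatory genes had other orders: Ccl4 stood at 1418 CPM, 1009 CPM and 917 CPM, Osm at 105 CPM, 97.1 CPM and 50.3 CPM, Il1r2 at 267 CPM, 82.2 CPM and 396 CPM, and the chemokine list at 2325 CPM, 2047 CPM and 2664 CPM. Split by early-gene UMIs instead, heat shock stood at 8963 CPM in the 38 nuclei with 6 to 11 UMIs, 11408 CPM in the 28 with 12 to 20 and 13903 CPM in the 49 with 21 or more, and NF-kB at 6612 CPM, 5832 CPM and 5579 CPM. These splits also differ in depth, with median UMIs of 3097, 2793.5 and 3547.5 for the Il1b and Nlrp3 bins and 2420, 2205.5 and 3999 for the early-gene bins.

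**Figure D4:**
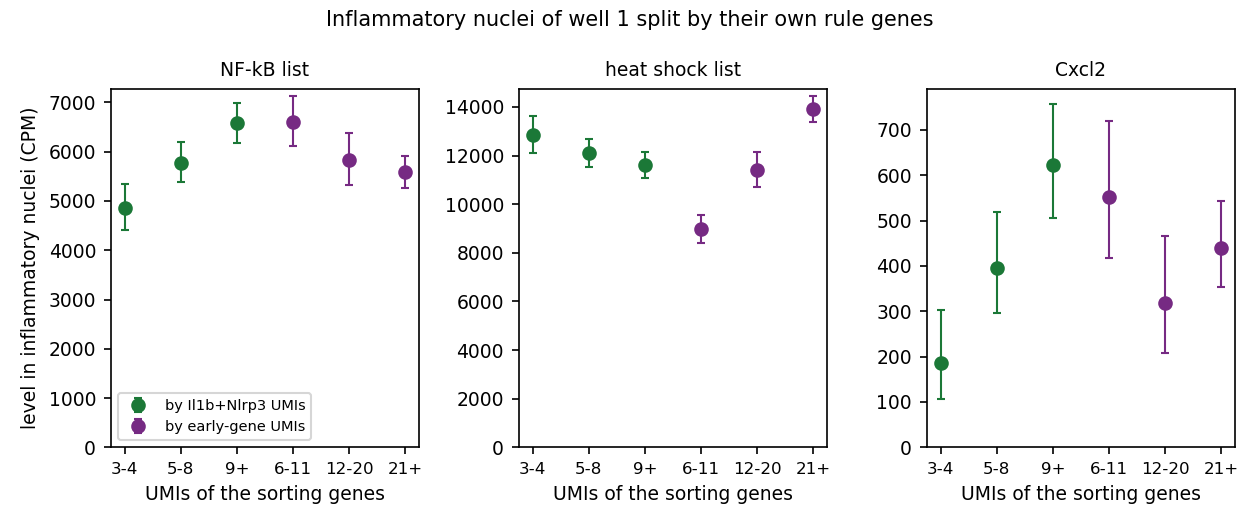
Levels in CPM of the NF-kB list, the heat shock list and Cxcl2 in the 115 inflammatory nuclei of well 1, split into 3 bins by their Il1b and Nlrp3 UMIs (left 3 points) or by their early-gene UMIs (right 3 points), with exact 95% intervals. NF-kB and Cxcl2 were highest in nuclei with 9 or more Il1b and Nlrp3 UMIs, and heat shock in those with 21 or more early-gene UMIs.

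Among secreted factors, Ccl4 was seen in 74 of 115 inflammatory nuclei, against 51 of 90 early-gene nuclei. Of Tnf, Cxcl2, Il1a, Osm, Il1r2 and Ptgs2, 29 of 115 inflammatory nuclei had none and 22 had 3 or more, against 36 and 6 of 90 early-gene nuclei, 11 and 3 of 40 nuclei with Il1b or Nlrp3 alone, and 293 and 3 of 398 steady nuclei. Tnf and Cxcl2 were the most often seen of these genes, in 44 and 38 inflammatory nuclei, and also the most often seen pair, together in 21. Whether 21 is more than their separate shares would give was not tested. Il10, an anti-inflammatory cytokine, had 14 UMIs in 3 inflammatory nuclei, against 13 UMIs in 8 of the other gated nuclei of well 1.

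The named lower genes had most of their early-gene UMIs in few nuclei. Auts2 had 10 UMIs in inflammatory nuclei, against 305 UMIs in early-gene nuclei, of which 224 stood in 1 nucleus. Pde4d stood at 15.8 CPM in inflammatory nuclei, against 797 CPM in early-gene nuclei, with 182 UMIs in 1 nucleus, and Grip1 had 1 UMI against 108 UMIs, with 97 in 1 nucleus. Stox2, Shroom3 and Farp1 were at 0 UMIs in inflammatory nuclei, which allows up to 7.92 CPM each, against 45, 42 and 38 UMIs in early-gene nuclei. The summed epithelial markers stood at 1670 CPM in inflammatory nuclei, against 2997 CPM in early-gene nuclei and 2284 CPM in all other gated nuclei. Single nuclei weighed on both references: 1 early-gene nucleus held 284 of 937 of these UMIs, and 1 other gated nucleus 539 of 5269. No inflammatory nucleus held more than 19 of 633. The deepest early-gene nucleus had 20563 UMIs in all, against 7309 for inflammatory nuclei. With nuclei at 0 UMIs of the 5 epithelial genes only, 64 inflammatory against 50 early-gene nuclei, 132 of 2869 genes were lower, of which 27 were among the 381 lower genes above, and Auts2 had 4 UMIs in inflammatory nuclei against 2 UMIs in early-gene nuclei.

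In the same restricted set 155 of 2869 measured genes were higher, of which 47 were among the 170 higher genes above. With the rule on one part of the UMIs 130 of 2805 were higher, 42 of them among the 170. Most of the 170 were thus not called again, but fewer genes could be measured than the 4780 above. How many of the 170 were still measured is not given here. Without epithelial-gene UMIs, Arl5c stood at 6.30-fold of early-gene nuclei, Grasp at 4.61, Cxcl2 at 3.61 and Nfkb1 at 2.39. The NF-kB list stood there at 1.62 and heat shock at 0.924. Il1r2, however, stood at 0.820, with 20 UMIs in inflammatory nuclei against 18 UMIs in early-gene nuclei, and Tnf at 1.08. With the rule on one part of the UMIs and levels in the other, the NF-kB list stood at 1.65-fold, chemokines at 1.58, costimulation at 1.5 and heat shock at 0.869. There Nfkb1 stood at 1.73, below the call, and Cd40 at 2.40 on 9 UMIs in inflammatory nuclei against 3 UMIs in early-gene nuclei. Arl5c stood at 2.86 when 5 or more Il1b and Nlrp3 UMIs were asked for, which moved inflammatory nuclei with 3 to 4 such UMIs into the reference. Ptgs2 had a ratio of 4.81 with all UMIs, from 35 UMIs in inflammatory nuclei against 6 UMIs in early-gene nuclei, and of 0.915 with the rule on one part, with 8 UMIs in inflammatory nuclei against 7 UMIs in early-gene nuclei.

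**Figure D5:**
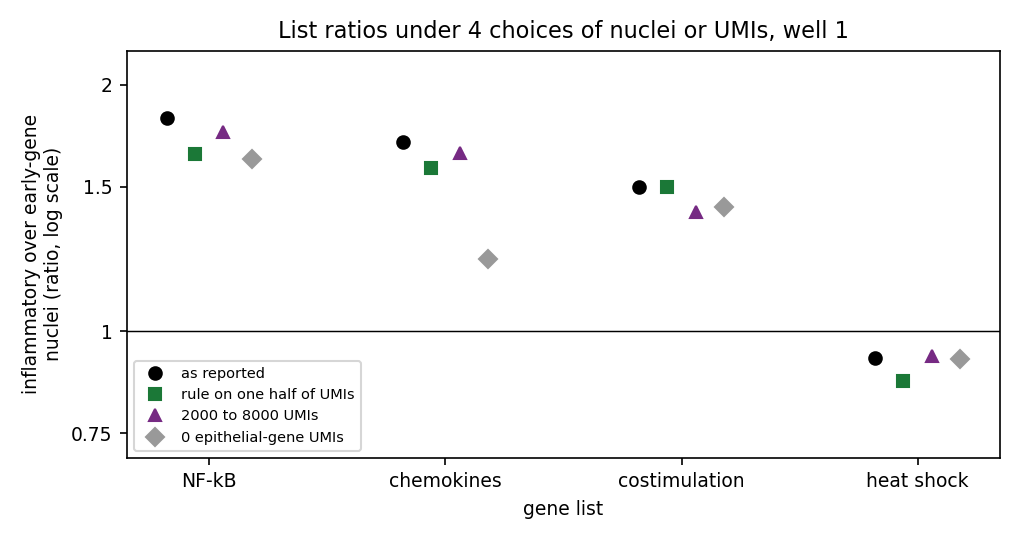
Ratio (log scale) of 4 gene lists in inflammatory nuclei over early-gene nuclei of well 1 as reported, with the rule on one part of the UMIs and levels in the other, in nuclei of 2000 to 8000 UMIs, and in nuclei without epithelial-gene UMIs. NF-kB stayed between 1.62 and 1.82 and heat shock between 0.869 and 0.933, while chemokines stood at 1.23 without epithelial-gene UMIs.

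The 8 inflammatory nuclei of well 2 had 1996 to 4448 UMIs, Il1b and Nlrp3 sums of 4 to 13 and early-gene sums of 6 to 26. None had a UMI of the 5 epithelial genes, against 51 of 115 in well 1. Well 2 was low in these genes as a whole: 9.67% of its 331 other gated nuclei had such a UMI. Osm was seen in 3 of the 8, and Il1r2, Cxcl2 and Tnf in 1 each. Monocyte markers stood at 2601 CPM (1989 to 3341) in these 8 nuclei, against 34.3 CPM in the inflammatory nuclei of well 1: 52 UMIs of Fn1 in 4 nuclei, 35 of them in 1, and 9 UMIs of Ccr2 in 2. The monocyte marker level of the other well 2 nuclei is not given here, so a difference between the wells cannot be told apart from a trait of these 8. With 23455 UMIs in all, 0 UMIs of a gene in them allows up to 128 CPM.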

How the data were processed

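Nuclei were profiled with the 10x 3′ v3 kit, per the labels' protocols, and aligned to mm10 with Cell Ranger 5.0, per the submitters' processing notes (5.0.1 per the file headers). The deposited values are raw UMI counts in 1 matrix of 32285 genes and 1838 barcodes, with 7381447 UMIs. No column lay outside the series. Genes sharing a symbol were added together.

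Counts were summed over nuclei and scaled to 1000000 UMIs (CPM). Ratios carry exact conditional binomial 95% intervals, levels exact Poisson intervals and shares Clopper-Pearson intervals, all for counting error only; a count of 0 allows up to 3. No p-value was computed, since the wells were mapped to no sample. Shares used nuclei thinned to 1000 UMIs. Doublets were scored with Scrublet, which called 0 of 1383 barcodes in well 1 and 4 of 455 in well 2, no inflammatory nucleus among them. At 0 of 1383 the caller did not work in well 1, so doublets there were not assessed.

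Members and gene lists were chosen with earlier results of these data known. Named genes were the 15 with the highest lower bound and the 8 with the lowest upper bound in the first 2 comparisons, the highest and lowest members of each list, label markers, and other-cell markers at a ratio of 2 or more. A few further genes, chosen after their values were seen, are given as examples. Ratios and calls were tested on simulated data. Scripts ran in Python 3.11.15 with scipy 1.17.1 for intervals, scanpy 1.11.5 for Scrublet, and numpy 2.4.6 and pandas 2.3.3. Gene positions are from GENCODE on GRCm38. Some members of the lists are not reported here.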

Additional observations from a re-analysis of the deposited data

How the results depend on the processing

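No paired analysis was possible because the results come from no test and the wells carry no sample. The number of inflammatory nuclei was 123; it was 66 when nuclei were thinned to 2000 UMIs, which leaves out shallower nuclei (of 103 inflammatory nuclei with 2000 UMIs or more, 61 were kept), and 72 when only nuclei with 0 UMIs of the 5 epithelial genes were used, a setting chosen after seeing the data. Against the other gated nuclei, lower genes numbered 749; they numbered 352 with the rule on one part of the UMIs, 1424 at 5 expected UMIs and 448 without epithelial-gene UMIs. At 30 expected UMIs there were 161 higher and 131 lower, at a ratio of 1.5 there were 565 and 1795, and at a ratio of 3 there were 83 and 256. Against early-gene nuclei, lower genes numbered 381; they numbered 224 at 2000 to 8000 UMIs, 245 at 10 or more early-gene UMIs, 143 with the rule on one part of the UMIs and 132 without epithelial-gene UMIs. There, 5 expected UMIs gave 346 higher and 820 lower, 30 gave 60 and 48, a ratio of 1.5 gave 562 and 929, and a ratio of 3 gave 42 and 148. Without epithelial-gene UMIs, ratios crossed 1 against the other gated nuclei for the mast cell list (1.62), Kit (1.62), Kcnip4 (0.886), Col25a1 (2.60) and Naaladl2 (1.39), and against early-gene nuclei for Il1r2 (0.820) and Auts2 (1.48). With the rule on one part of the UMIs they did so for Fn1 against the other gated nuclei (1.10), and against early-gene nuclei for Ptgs2 (0.915), Slc7a11 (0.915) and Pdk1 (2.0). Apart from fewer genes or UMIs under a stricter limit, the cause was not tested. Of 2032 single-gene values, 1830 stayed within the counting interval of the main value with no called ratio crossing 1. Of 447 list values 346 did. These intervals are wide for genes of few UMIs. The setting with a mitochondrial limit and Scrublet left out none of the nuclei compared, so its values could not move. They are included in both counts, which are therefore higher than the settings that could move would give. Depth limits genes of few UMIs: a gene at 0 in the inflammatory nuclei of well 1 may reach 7.92 CPM.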
